A study of Mus musculus with 4 samples.

Results

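Bcl6, Maf, Ahr and Rora encode transcription factors that direct helper T cell fates, and their expression was followed in wild-type and Foxo1-deficient mouse T cells. The genes were found through the symbols that the authors gave in their fold change tables, which name 660 of the 45037 non-control probe sets. Of these, 7 probe sets belonged to the 4 genes, with 4 for Rora and 1 each for Bcl6, Maf and Ahr. Other probe sets of these genes may lie among those without a symbol and were not analysed here. RNA came from Foxo1-deficient CD8 T cells, wild-type CD8 T cells, Foxo1-deficient CD4 T cells and wild-type CD4 T cells, and the mice, whose spleens and lymph nodes gave the cells, were 6 to 8 weeks old. Each of these 4 groups was hybridised to 1 Affymetrix array. No value therefore has a replicate, and how many mice gave each RNA, their strain, the Foxo1 allele and any Cre driver are not given in the sources used here. Levels are linear intensities in arbitrary units. An intensity below 74.9, the median of all values, was taken as not measured, and a difference against such a value is a lower bound ("at least"). Such a bound holds for these intensities and not for the authors' fold changes.

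Bcl6 is a zinc finger repressor required for follicular helper T cells, which help B cells in germinal centres, and germinal centre B cells express it as well. Maf is a basic leucine zipper factor that drives IL-4 and IL-21 in helper T cells and IL-10 in several effector lineages. Ahr is a ligand-activated factor of the basic helix-loop-helix family that senses aromatic compounds and is expressed in Th17 cells and many tissue lymphocytes. Rora is an orphan nuclear receptor that acts with RORγt in Th17 cells and is needed for group 2 innate lymphoid cells. Foxo1 is a forkhead factor that keeps naive T cells quiescent and recirculating, and the series asks which genes depend on it.

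On mouse assembly GRCm38.p6, RefSeq places Bcl6 on chromosome 16 (23965050 to 23988866), Maf on chromosome 8 (115703253 to 115706894), Ahr on chromosome 12 (35497979 to 35534989) and Rora on chromosome 9 (68653404 to 69388246). Of the 4 genes, Bcl6 (2 start sites) and Rora (1) were matched to RefSeq promoter windows. The Rora window begins after the first base of the gene span given above, so the bases before 68653404 were not searched. The 250 bases before each start are shown because Bcl6 and Rora, the genes with a window, were higher without Foxo1 in both cell types. Capitals mark the Ahr motif GCGTG, on either strand, and the palindromic motif of STAT factors, TTCNNNGAA, which Bcl6 sites resemble.
Bcl6, chr16:23988853-23989102, minus strand: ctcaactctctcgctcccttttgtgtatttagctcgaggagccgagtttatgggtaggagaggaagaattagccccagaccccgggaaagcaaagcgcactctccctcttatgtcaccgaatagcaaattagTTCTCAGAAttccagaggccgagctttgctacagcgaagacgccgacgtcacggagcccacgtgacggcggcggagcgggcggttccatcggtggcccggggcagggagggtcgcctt
Bcl6, chr16:23981284-23981533, minus strand: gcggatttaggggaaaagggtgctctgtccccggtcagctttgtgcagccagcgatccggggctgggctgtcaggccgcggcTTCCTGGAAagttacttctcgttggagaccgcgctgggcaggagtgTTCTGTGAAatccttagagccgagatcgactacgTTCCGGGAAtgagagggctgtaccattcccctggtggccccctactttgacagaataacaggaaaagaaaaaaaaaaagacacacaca
Rora, chr9:68653536-68653785, plus strand: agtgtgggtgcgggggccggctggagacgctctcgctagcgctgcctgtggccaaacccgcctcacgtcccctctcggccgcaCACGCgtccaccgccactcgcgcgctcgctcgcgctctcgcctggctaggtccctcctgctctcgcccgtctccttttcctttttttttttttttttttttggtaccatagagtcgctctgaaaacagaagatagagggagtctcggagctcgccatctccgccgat
The core FOXO motif GTAAACA was on either strand in none of these 3 windows, and 3.17% of 32851 promoter windows of this length held it. The Ahr motif was found 1 time before Rora and in 28.2% of all windows. The STAT motif, searched for after these sequences had been read, was found 3 times before the downstream Bcl6 start, 1 time before the upstream one and in 7.02% of all windows. These are matches of letters on either strand, and none of the motifs overlapped another.

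The labels were checked first with the deleted gene. All 4 Foxo1 probe sets were lower in the Foxo1-deficient array than in its wild-type counterpart. For the brightest, the intensity was 1836 in Foxo1-deficient CD8, against 6902 in wild-type CD8, and 1107 in Foxo1-deficient CD4, against 8204 in wild-type CD4. The array medians were 69.0 in Foxo1-deficient CD8, 77.1 in wild-type CD8, 75.7 in Foxo1-deficient CD4 and 77.6 in wild-type CD4. The Foxo1-deficient CD8 array was lower than the wild-type CD8 array by 0.16 in median log2 intensity (a shift of -0.16). None of the T cell, CD4 or CD8 marker genes carried a symbol in the authors' tables, so the labelled cell types were not checked here.

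**Figure D1:**
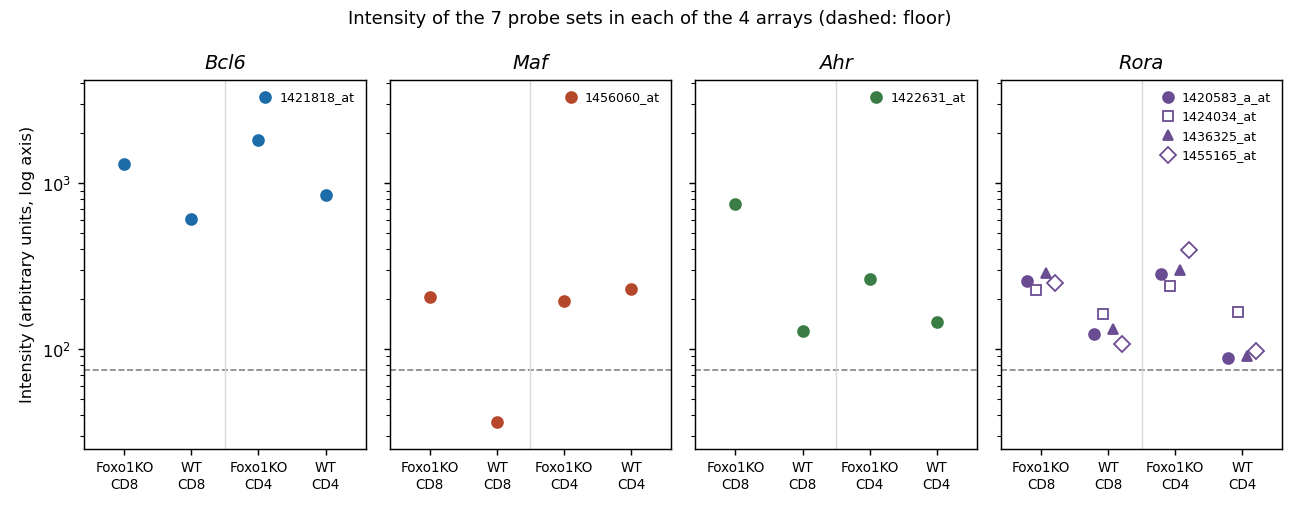
Intensity (arbitrary units, log axis) of the 7 probe sets in each of the 4 arrays, 1 point per probe set and array, with the floor of 74.9 as a dashed line. Bcl6 and all 4 Rora probe sets were higher in the Foxo1-deficient array of each cell type, Ahr was highest in Foxo1-deficient CD8 (749), and Maf was below the floor in wild-type CD8 alone (36.0).

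Without Foxo1, Bcl6, Ahr and Rora were higher in both CD8 and CD4 T cells, while Maf was higher in CD8 T cells and near its wild-type level in CD4 T cells. At least 2-fold higher were 6 of the 7 probe sets in CD8, against 1.47% of the 23803 that could be compared, and 4 of the 7 in CD4, against 1.5% of 24070. The median log2 difference of the 7 was 1.10 in CD8 and 1.10 in CD4, against -0.0031 in CD8 and 0.017 in CD4 over all probe sets compared. These shares and medians are given as a description with no test, because a probe set has a symbol only if the authors listed it for a change of at least 2-fold between genotypes. In CD8, 351 of all probe sets passed 2-fold upward and 485 downward without Foxo1, and 561 and 330 did so after each array was centred on its median. Centring raised the CD8 genotype difference of the 6 probe sets measured in both arrays by 0.16 and the bound of Maf to 1.57, and the 7 kept their side of 2-fold under it.

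To set an error scale in the absence of replicates, each difference was placed beside the 5th to 95th percentile range of the differences of all probe sets of like intensity, within 0.5 log2 units. That range covers both array noise and true differences. It is no test, and it does not hold the spread between mice.

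The Bcl6 probe set (1421818_at) had an intensity of 1298 in Foxo1-deficient CD8, against 606 in wild-type CD8, and 1828 in Foxo1-deficient CD4, against 852 in wild-type CD4. Both Foxo1-deficient arrays were above both wild-type arrays. The difference between genotypes was 2.14-fold (log2 1.10) in CD8 and 2.15-fold (log2 1.10) in CD4. Probe sets of like intensity spanned -0.57 to 0.57 in CD8 and -0.43 to 0.54 in CD4, so both differences lay outside that range. The authors listed this probe set for CD8 alone, and the CD4 difference was not what brought it into the tables.

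The Ahr probe set (1422631_at) read 749 in Foxo1-deficient CD8, against 128 in wild-type CD8, and 265 in Foxo1-deficient CD4, against 144 in wild-type CD4. The Foxo1-deficient CD8 array stood above the other three, and the wild-type arrays were close to each other. In CD8 the difference was 5.83-fold (log2 2.54), where the range at like intensity was -0.73 to 0.69. In CD4 it was 1.84-fold (log2 0.88), just beyond a range of -0.63 to 0.81. The authors listed this probe set for CD8 alone.

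The Maf probe set (1456060_at) read 205 in Foxo1-deficient CD8, against 36.0 in wild-type CD8, and 195 in Foxo1-deficient CD4, against 229 in wild-type CD4. Wild-type CD8 was the 1 array in which Maf was not measured, and the other three differed little. Maf was at least 2.74-fold higher without Foxo1 in CD8 (log2 at least 1.46), beyond a range of -0.79 to 0.74 at like intensity. In CD4 the log2 difference was -0.23, inside a range of -0.62 to 0.81. Only the CD8 table of the authors lists this probe set, with a ratio of 2.36, below the bound of 2.74-fold.

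The Rora probe sets gave the same direction in both cell types with different sizes. The brightest (1455165_at) read 250.02 in Foxo1-deficient CD8, against 107 in wild-type CD8, and 397 in Foxo1-deficient CD4, against 97.4 in wild-type CD4. Probe set 1436325_at read 285 in Foxo1-deficient CD8, against 133 in wild-type CD8, and 300.4 in Foxo1-deficient CD4, against 90.7 in wild-type CD4. Both are listed by the authors for both cell types. Probe set 1420583_a_at read 256 in Foxo1-deficient CD8, against 123 in wild-type CD8, and 284 in Foxo1-deficient CD4, against 88.4 in wild-type CD4. Probe set 1424034_at read 227 in Foxo1-deficient CD8, against 162 in wild-type CD8, and 238 in Foxo1-deficient CD4, against 166 in wild-type CD4. These last probe sets are listed for CD4 alone, and for each of the 4 both Foxo1-deficient arrays were above both wild-type arrays.

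Over the 4 Rora probe sets the mean log2 difference between genotypes was 0.97 ± 0.33 in CD8 and 1.49 ± 0.66 in CD4 (SD over 4 probe sets of the same pair of arrays, not over mice). In CD8 it ran from 0.49 (1424034_at) to 1.23 (1455165_at), and in CD4 from 0.52 to 2.03 at the same probe sets. Probe set 1424034_at lay inside the range at like intensity in both cell types, which was -0.83 to 0.76 in CD8 and -0.63 to 0.81 in CD4. The other three lay outside it in both.

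**Figure D2:**
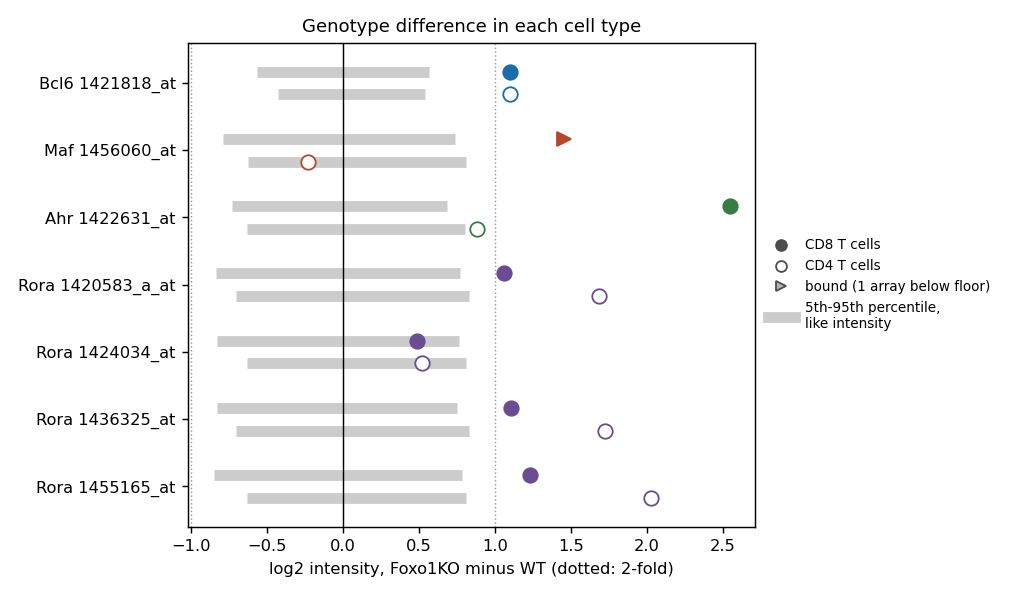
Log2 intensity difference of Foxo1-deficient minus wild-type for each probe set, with filled symbols for CD8 and open symbols for CD4 T cells, 1 pair of arrays each; the triangle is a lower bound and grey bars span the 5th to 95th percentile of probe sets of like intensity. Ahr in CD8 (2.54) and Rora 1455165_at in CD4 (2.03) lie farthest right, and Maf in CD4 (-0.23) is the 1 point left of 0.

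The genotype difference was nearly equal in both cell types for Bcl6 and unequal for Ahr and Maf. The CD8 difference minus the CD4 difference was -0.0032 in log2 units for Bcl6, 1.67 for Ahr and at least 1.68 for Maf. For Rora it was -0.80 (1455165_at), -0.62 (1436325_at), -0.63 (1420583_a_at) and -0.031 (1424034_at), so the differences of all 4 were smaller in CD8, that of 1424034_at by little. With arrays centred on their medians, the genotype difference of 1424034_at was instead larger in CD8 (0.65) than in CD4 (0.56). With 1 array per group no residual spread remains, and these differences of differences were not tested. The fall of Foxo1 itself was smaller in CD8 than in CD4, and whether this bears on them was not tested.

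The authors' deposited tables give the genotype ratio of each listed probe set, which does not equal that of the value table. In the authors' deposited table for CD8, the Foxo1-deficient over wild-type ratio was 2.83 for Bcl6, 5.80 for Ahr and 2.36 for Maf. The authors' deposited table for CD8 also gave 2.43 for Rora 1436325_at and 2.23 for 1455165_at. The authors' deposited table for CD4 gave 3.54 (1455165_at), 2.64 (1436325_at), 2.22 (1420583_a_at) and 2.10 (1424034_at). Directions were the same in all 9 entries. Sizes were compared among entries with both readings above the floor. There the authors' deposited table and the value table differed most for 1424034_at in CD4, with log2 values of 1.07 and 0.52. They differed least for Ahr, with 2.54 in each. For Maf in CD8 the authors' log2 was 1.24, below the bound of 1.46 and below the 2.51 of the value table without a floor. Over the whole CD8 and CD4 tables the median absolute gap to the value table, taken without a floor, was 0.23 and 0.24 log2 units. Bcl6 in CD4 (2.15-fold) and Rora 1420583_a_at in CD8 (2.08-fold) passed 2-fold in the value table without being in the authors' deposited table for that cell type.

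**Figure D3:**
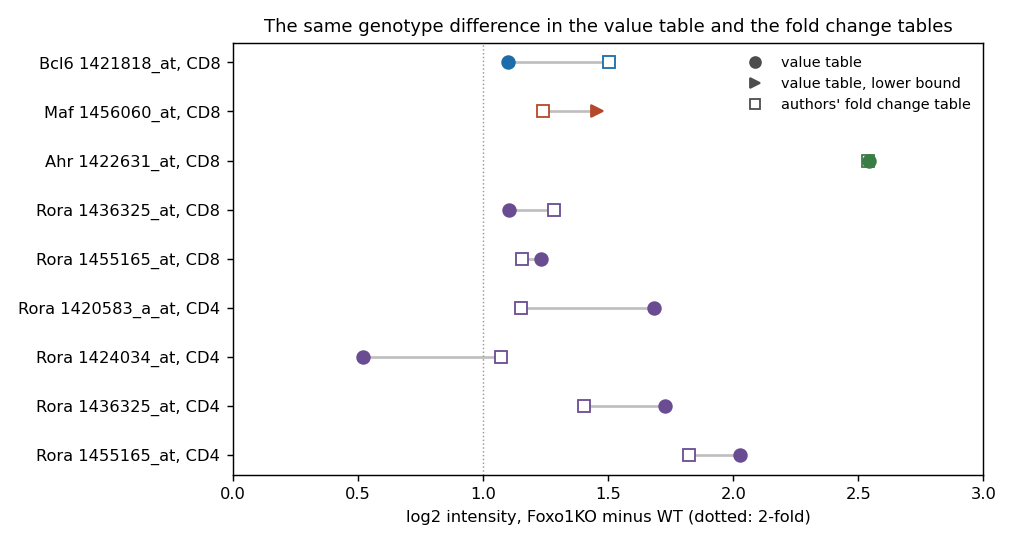
Log2 difference of Foxo1-deficient minus wild-type in the value table (filled; the triangle is a lower bound) and in the authors' deposited fold change tables (open squares) for the 9 entries of the 4 genes. Rora 1424034_at in CD4 is the 1 entry on different sides of 2-fold, with 0.52 in the value table and 1.07 in the authors' deposited table.

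Between cell types the 4 genes differed from each other. The authors' tables compare genotypes, but the cell type differences use the same arrays. Each of the 7 probe sets carries a symbol through a genotype ratio made of the same readings, so its cell type differences are not independent of that choice. Maf was lower in CD8 than in CD4 in the wild-type arrays and nearly equal in the Foxo1-deficient ones. Ahr was higher in CD8 than in CD4 without Foxo1 and nearly equal in the wild-type arrays. Bcl6 was lower in CD8 by about the same amount in both genotypes, and the 4 Rora probe sets were lower in CD8 without Foxo1, of which 1424034_at and 1436325_at turned to higher when arrays were centred on their medians. In wild-type arrays Rora was higher in CD8 at every probe set but 1424034_at. The medians of the Foxo1-deficient arrays differed by -0.13 in log2 units (CD8 minus CD4).

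Among Foxo1-deficient arrays, Ahr was 2.82-fold higher in CD8 than in CD4 (749 against 265, log2 1.497), beyond a range of -0.86 to 0.67 at like intensity. It was the 1 probe set of the 7 at least 2-fold higher, where 1.92% of 23637 compared probe sets were. In wild-type arrays the Ahr difference was -0.17 (128 in CD8 against 144 in CD4), inside -0.89 to 0.80. Maf in wild-type arrays was at least 3.05-fold lower in CD8 (36.0, below the floor, against 229 in CD4, log2 at most -1.61). That was the 1 probe set of the 7 at least 2-fold lower, where 2.31% of 24371 were. In Foxo1-deficient arrays Maf differed by 0.073 (205 in CD8 against 195 in CD4), inside -0.99 to 0.72.

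Bcl6 was lower in CD8 than in CD4 by a log2 difference of -0.49 in Foxo1-deficient arrays (1298 against 1828) and of -0.49 in wild-type arrays (606 against 852). Each value lay inside the range at like intensity, which was -0.59 to 0.58 in Foxo1-deficient and -0.69 to 0.65 in wild-type arrays. The Rora differences ran from -0.67 (1455165_at) to -0.067 (1424034_at) in Foxo1-deficient arrays and from -0.036 (1424034_at) to 0.55 (1436325_at) in wild-type arrays. Their means over the 4 probe sets were -0.24 ± 0.29 and 0.28 ± 0.28 (SD over probe sets), and every one lay inside its range at like intensity. Under another scaling of the arrays the sign of 1424034_at and 1436325_at in Foxo1-deficient arrays and of 1424034_at in wild-type arrays turned, from values between -0.073 and -0.036.

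**Figure D4:**
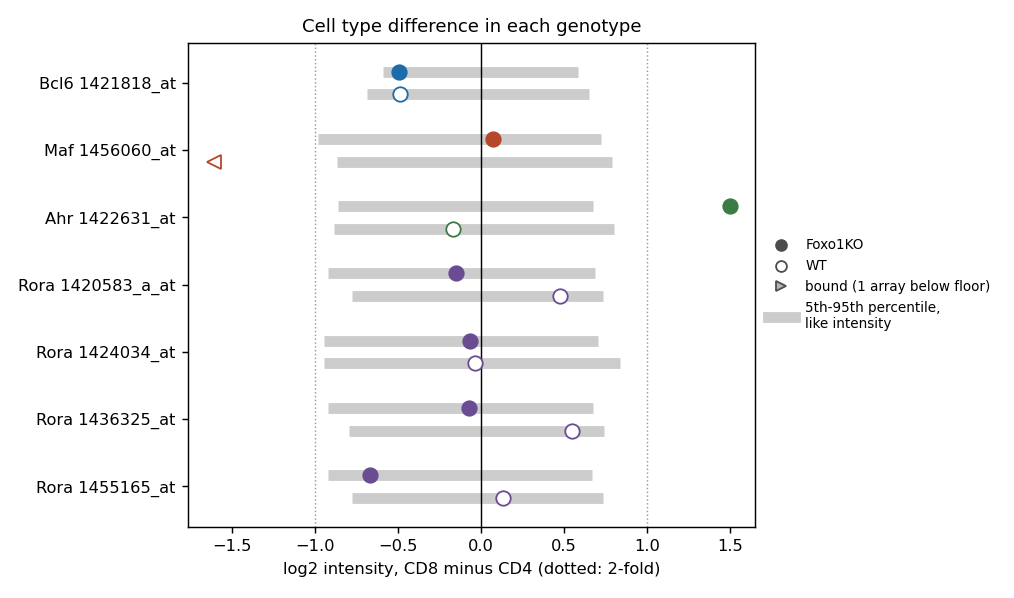
Log2 intensity difference of CD8 minus CD4 for each probe set, with filled symbols for Foxo1-deficient and open symbols for wild-type arrays, 1 pair of arrays each; the triangle is a bound and grey bars span the 5th to 95th percentile of probe sets of like intensity. Ahr without Foxo1 (1.497) and Maf in wild-type (at most -1.61) are the points outside their grey bars.

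The cell type difference shared by both genotypes was tested in limma over all 4 arrays with genotype as an additive term, on log2 values without a floor. The fit covered 25375 probe sets and left 1 residual degree of freedom, which carries the noise of the arrays together with any inequality of the cell type difference between genotypes. No probe set had an adjusted p under 0.05 (0 of 25375, 0%), while 1425 were higher and 2198 lower in CD8 at an unadjusted p under 0.05. With limma's mean-dependent and robust prior 1261 were called. The spread between mice enters neither the SE nor the p-values. In the first fit Bcl6 had a log2 difference of -0.49 ± 0.15 (SE, limma adjusted p = 0.342), lower in CD8 in both genotypes, and the adjusted p ran from 0.0820 to 0.773 over the alternatives. Maf had -1.30 ± 0.80 (adjusted p = 0.517) and Ahr 0.66 ± 0.50 (adjusted p = 0.587), whose cell type differences were unequal between the genotypes. The Rora probe sets had values between -0.27 and 0.24, with adjusted p from 0.670 to 0.890. No adjusted p of the 7 probe sets was under 0.05 in this limma fit or in its alternatives, of which the fit to probe sets at or above the floor in all 4 arrays leaves out Maf.

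Within each gene the arrays can be ordered by intensity. Here "not separated" means only that a difference lay inside the range at like intensity, which is no test. For Bcl6 the order was Foxo1-deficient CD4, Foxo1-deficient CD8, wild-type CD4 and wild-type CD8. The difference between the cell types of 1 genotype was within the range at like intensity, so neither pair of neighbours of the same genotype is separated, and the middle pair was not compared. For Ahr Foxo1-deficient CD8 came first, then Foxo1-deficient CD4, wild-type CD4 and wild-type CD8, of which the wild-type arrays are not separated. For Maf wild-type CD4, Foxo1-deficient CD8 and Foxo1-deficient CD4 are not separated from each other by the comparisons made, and wild-type CD8 came last. The Rora probe sets had both Foxo1-deficient arrays above both wild-type arrays, but the genotypes are not separated at 1424034_at in either cell type. Foxo1-deficient CD4 came first at all 4, while neither wild-type array was ahead of the other at all of them. The cell types of 1 genotype are not separated, since each such difference lay inside its range at like intensity.

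Genes with the most similar pattern were sought among the 502 other genes with a symbol, on each gene's brightest probe set. The measure was the root mean square difference, over the 4 arrays, of mean-centred log2 values. Values below the floor were first raised to it. Nearest to Bcl6 were Socs3 (0.067 log2 units) and Socs1 (0.109), inhibitors of cytokine receptor signalling, and E2f2 (0.120), a cell cycle transcription factor, where the median gene lay at 0.90. Socs3 read 8871 in Foxo1-deficient CD8, against 4705 in wild-type CD8, and 12959 in Foxo1-deficient CD4, against 6135 in wild-type CD4. The order of the arrays was thus that of Bcl6.

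Nearest to Maf were Ppp2ca (0.183), a catalytic subunit of protein phosphatase 2A, Ifngr2 (0.207), a chain of the interferon gamma receptor, and Mbnl1 (0.213), a splicing regulator. Mbnl1 read 1713 in Foxo1-deficient CD8, against 554 in wild-type CD8, and 1574 in Foxo1-deficient CD4, against 1308 in wild-type CD4. Like Maf, all of these had their lowest reading in wild-type CD8. The Maf reading in that array (36.0) was raised to the floor, so these distances rest in part on a value not measured.

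Nearest to Ahr were Cdh1 (0.125), which encodes E-cadherin, the serpin gene Serpina3g (0.143) and Ighm (0.220), the immunoglobulin mu heavy chain. All of these were below the floor in both wild-type arrays, so their wild-type values were raised to it and have no order. Serpina3g read 487 in Foxo1-deficient CD8, against 47.7 in wild-type CD8, and 135 in Foxo1-deficient CD4, against 43.2 in wild-type CD4.

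Nearest to Rora were Rgs1 (0.178), a regulator of G protein signalling, the transcription factor gene Grhl3 (0.190) and Dusp10 (0.197), a phosphatase of MAP kinases. Dusp10 read 1216 in Foxo1-deficient CD8, against 473 in wild-type CD8, and 1475 in Foxo1-deficient CD4, against 524 in wild-type CD4. Grhl3 was below the floor in both wild-type arrays, so its distance rests on values raised to the floor. All of the 502 genes had been selected by the authors for a genotype change, so the likeness describes these 4 arrays only.

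**Figure D5:**
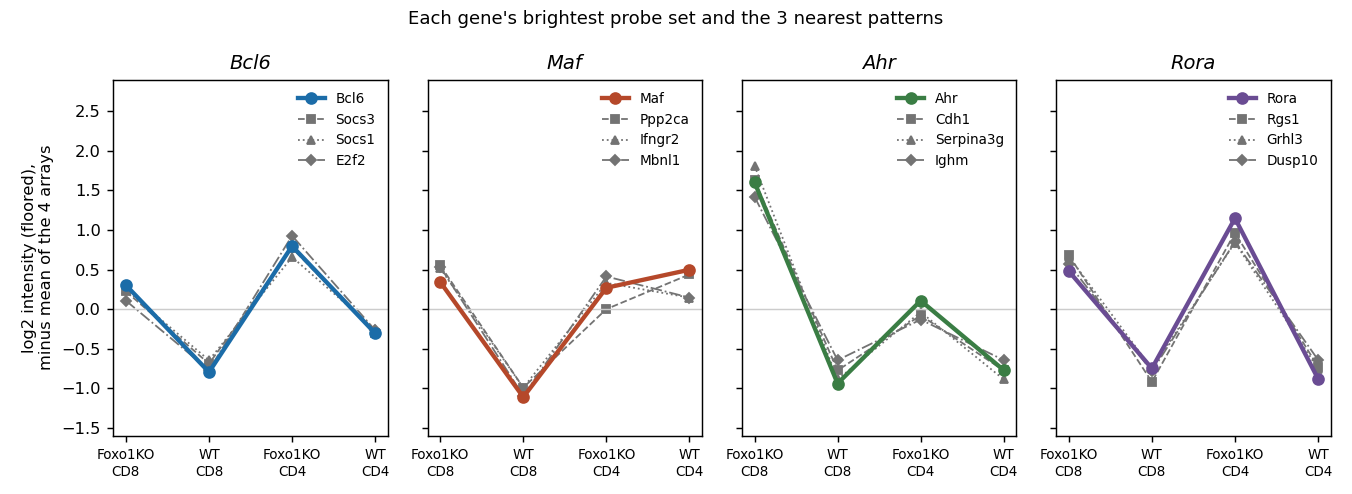
Log2 intensity with the floor, minus the mean of the 4 arrays, for the brightest probe set of each gene (coloured) and the 3 genes with the nearest pattern (grey); lines join the arrays only to guide the eye. Bcl6 and Socs3 nearly coincide (0.067), and the genes nearest to Ahr share its peak in Foxo1-deficient CD8.

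Of 18 other helper lineage factors on the list, 5 carried a symbol, and these moved in different directions. In CD8, 2 of 4 measured were at least 2-fold higher without Foxo1 and none lower, with a median log2 difference of 1.28. In CD4, 2 of 5 were higher and 1 lower, with a median of 0.65. Over all probe sets compared, 1.47% were higher and 2.04% lower in CD8, and 1.5% higher and 1.26% lower in CD4. List genes carry a symbol only because the authors listed them for a genotype change of at least 2-fold, so nothing is read from these counts or those of the lists that follow. Ikzf2, which encodes Helios, read 3896 in Foxo1-deficient CD8, against 1068 in wild-type CD8, and 1292 in Foxo1-deficient CD4, against 318 in wild-type CD4. Tbx21, which encodes the Th1 factor T-bet, read 1295 in Foxo1-deficient CD8, against 165 in wild-type CD8, and 110 in Foxo1-deficient CD4, against a value below the floor in wild-type CD4. Foxp3, the factor of regulatory T cells, read 152 in Foxo1-deficient CD4, against 47.7 (below the floor) in wild-type CD4, and was below the floor in both CD8 arrays. Stat4, which transmits IL-12 signals, was lower in CD4, with 1192 in Foxo1-deficient and 3254 in wild-type cells.

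Of 17 genes on a list for follicular helper T cells, 6 carried a symbol, and 5 of those passed 2-fold in at least 1 cell type. The list was not sorted by whether a gene promotes or opposes this fate, so its medians give no direction for the fate. In CD8 none of the 6 was at least 2-fold higher and 3 were lower (median log2 -0.96), and in CD4 2 were higher and 1 lower (median -0.60). Cxcr5, the receptor that leads cells into follicles, read 324 in Foxo1-deficient CD4, against 143 in wild-type CD4. Pdcd1, which encodes PD-1, read 403 in Foxo1-deficient CD4, against 181 in wild-type CD4. Slamf6, an adhesion receptor of the SLAM family, was lower in both cell types, with 406 in Foxo1-deficient CD8, against 1625 in wild-type CD8, and 338 in Foxo1-deficient CD4, against 1599 in wild-type CD4. Sh2d1a, the adaptor of those receptors, and the costimulatory receptor gene Icos were 2.12-fold and 2.47-fold lower in CD8. The shares over all probe sets are those given for the helper lineage factors.

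Of 9 Th17 genes only Il6ra, a chain of the IL-6 receptor, carried a symbol. It read 362 in Foxo1-deficient CD8, against 1792 in wild-type CD8, and 2072 in Foxo1-deficient CD4, against 1784 in wild-type CD4. No gene of the Ahr target list (10 genes) or of the list of Maf-linked cytokines and receptors (8 genes) carried a symbol, and they were not analysed here.

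Markers of other cells moved with genotype in the same arrays. Of 15 B cell and plasma cell markers, 7 carried a symbol. They were the immunoglobulin genes Ighm, Igkc, Igh, Igh-VJ558 and Igk-V1, the J chain gene Jchain and the MHC class II gene H2-Aa. Their summed intensity was 10827 in Foxo1-deficient CD8, against 1487 in wild-type CD8, and 7137 in Foxo1-deficient CD4, against 1567 in wild-type CD4. At least 2-fold higher were 7 of 7 in CD8 and 5 of 7 in CD4, against 1.47% and 1.5% of all probe sets, and these 7 too have a symbol because the authors listed them for a genotype change. None read 0, and 3 were below the floor in wild-type CD4 and 1 in wild-type CD8. The B cell genes Ms4a1, Cd79a and Pax5 carried no symbol and were not analysed here. Bcl6 and Ahr are also expressed in B cells, and the part of such cells in their differences was not tested.

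Of 8 gamma-delta and innate-like T cell markers, 3 carried a symbol, with a summed intensity of 7049 in Foxo1-deficient CD8, against 192 in wild-type CD8, and 8663 in Foxo1-deficient CD4, against 223 in wild-type CD4. The gene 5830411N06Rik made up most of the sum in both Foxo1-deficient arrays (5711 in CD8 and 5888 in CD4). Trgv1, a T cell receptor gamma gene, was below the floor in both CD4 arrays and in wild-type CD8. Cd163l1 was below it in wild-type CD8, so these sums too hold values not measured. Of 5 regulatory T cell markers, 3 carried a symbol, with sums of 3990 in Foxo1-deficient CD8, against 1241.5 in wild-type CD8, and 1504 in Foxo1-deficient CD4, against 712 in wild-type CD4. Ikzf2 made up most of these sums in both Foxo1-deficient arrays, and Foxp3 was below the floor in both CD8 arrays. Nrp1, a surface receptor, went the other way, with 59.3 (below the floor) in Foxo1-deficient CD4, against 347 in wild-type CD4. Of 8 myeloid markers, 2 carried a symbol (Lyz2 and Fcgr3), with sums of 171 in Foxo1-deficient CD8, against 112 in wild-type CD8, and 194 in Foxo1-deficient CD4, against 341 in wild-type CD4. Fcgr3 read 29.1 (below the floor) in Foxo1-deficient CD4, against 189 in wild-type CD4. Both myeloid markers were below the floor in wild-type CD8 and 1 of the 2 in each Foxo1-deficient array, so these sums hold values not measured. No NK cell or innate lymphoid marker carried a symbol. The part of these cells in the differences of Maf, Ahr and Rora was not tested, and in such bulk samples more cells of a type and more RNA per cell cannot be told apart.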

How the data were processed

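Per the labels' protocols, biotinylated cRNA of each sample was hybridised to Affymetrix arrays. The value table deposited for the series gives linear intensity for every probe set; its summary and scaling steps are not stated in the labels. For each cell type the authors deposited fold changes of selected probe sets, as a ratio of knockout over wild-type. Its header names stand 1 column left of their values, the cell type is taken from the name of each table, and its 4 columns of per-array intensities (in both tables together) were not used. Controls (64) were left out. The members and gene lists were chosen with earlier results of these data known.

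The deposited intensities were converted to log2 with no rescaling. Values under the median of all values were raised to it, and a probe set under it in both arrays was not compared. Only the cell type effect was tested, in limma 3.58.1 (R 4.3.3), two-sided, with Benjamini-Hochberg adjustment over all probe sets that reached the floor in some array. On simulated data with a known cell type difference and no genotype difference, only the estimated size was checked. That check does not bear on the number of probe sets called. Python 3.11.15, numpy 2.4.6, pandas 2.3.3 and matplotlib 3.10.9 served the rest. Named were the probe sets with a symbol of the 4 genes and of Foxo1, list genes at least 2-fold different between genotypes in a cell type, and the 3 nearest patterns for each gene. Sequences are RefSeq's (GRCm38.p6). Alternatives were other floors, no floor, centring on medians, quantile normalization, other folds, the authors' deposited tables, another prior, no genotype term and other filters. The number of arrays limits the precision.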

Additional observations from a re-analysis of the deposited data

Results flagged for a closer look

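With 1 array in each group, the items here are effects whose sign was opposite in the groups compared, and none of these differences was tested. Maf differed between genotypes by a log2 of at least 1.46 in CD8 and by -0.23 in CD4. Its CD8 minus CD4 difference was 0.073 in Foxo1-deficient and at most -1.61 in wild-type arrays. Ahr had a CD8 minus CD4 difference of 1.497 in Foxo1-deficient and -0.17 in wild-type arrays. In each of these pairs of Maf and Ahr the value nearer to 0 lay inside the range of probe sets of like intensity. For Rora the same difference was -0.15 in Foxo1-deficient and 0.48 in wild-type arrays (1420583_a_at), -0.073 and 0.55 (1436325_at), and -0.67 and 0.13 (1455165_at), each within the range of probe sets of like intensity. With arrays centred on their medians, 1436325_at in Foxo1-deficient arrays was at 0.060, the same sign as in wild-type arrays.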

How the results depend on the processing

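Of 127 member values under an alternative, 6 moved by 1.5-fold or more, 3 passed to the other side of 2-fold and 5 near 0 changed sign. With the floor at the 25th percentile, and with no floor, Maf was higher without Foxo1 in CD8 by a log2 of 2.51 and lower in wild-type CD8 than CD4 by a difference of -2.67, since its reading below the floor then counts. With the floor at the 75th percentile, Ahr in Foxo1-deficient CD8 was at least 0.67 in log2 above both other arrays it was compared with, and 22 of 28 values were not measured. In the authors' deposited table Rora 1424034_at in CD4 was past 2-fold (log2 1.07). The counts of all probe sets at least 2-fold higher and lower depended on the floor and the fold. With the floor at the 25th percentile they were 1630 and 3043 between genotypes in CD8, 1860 and 2284 between genotypes in CD4, 1772 and 2738 between cell types without Foxo1 and 2492 and 2533 between cell types in wild-type. With the floor at the 75th percentile they were 92 and 125 between genotypes in CD8, 85 and 94 between genotypes in CD4, 156 and 154 between cell types without Foxo1 and 164 and 109 between cell types in wild-type. At a 1.5-fold threshold they were 1427 and 1827 between genotypes in CD8, 1588 and 1203 between genotypes in CD4, 1428 and 2522 between cell types without Foxo1 and 1876 and 2256 between cell types in wild-type. At a 3-fold threshold they were 73 and 127 between genotypes in CD8, 84 and 78 between genotypes in CD4, 159 and 181 between cell types without Foxo1 and 160 and 113 between cell types in wild-type. Centring on the medians gave 561 higher between genotypes in CD8. The limma count of cell type calls was 1261 with the mean-dependent and robust prior, 1 with no genotype term and 82 over probe sets at or above the floor in all 4 arrays, a fit that leaves out Maf. The labels give no replicate numbers, so no fit with a replicate block was made. Signal over background limits Maf in wild-type CD8, where its reading lies below the floor.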
